A study of Homo sapiens with 3 samples.

Results

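Keratin-associated proteins (KAPs), encoded by the KRTAP genes, were examined in C33A cells, a human cervical carcinoma line, where they served as a view of the low end of the array signal. Members were taken by gene symbol alone, as every probe set whose symbol began with KRTAP and a digit. Of 33297 probe sets on the array, 99 carried such a symbol, and 73 of these carried a single symbol and gave 68 genes of the 18417 genes measured. These were 67 protein-coding genes of 22 subfamilies (the number before the hyphen) and KRTAP5-AS1, an antisense RNA gene that the symbol rule takes in. The other 26 probe sets each carried several symbols and were kept apart. Olfactory receptor (OR) genes, taken as symbols beginning with OR and a digit, were the comparison family, with 361 genes.

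KAPs form the matrix of the hair shaft, in which they bind hair keratin filaments to each other through disulphide bonds. They fall by composition into ultra-high-sulfur, high-sulfur and glycine-tyrosine-rich classes, and most of their genes are short, have a single exon and lie in clusters of near-identical copies. The genes are known for transcription in the differentiating hair follicle, a structure that a cervical carcinoma line does not form. OR genes, also short and clustered, are transcribed mainly in sensory neurons of the nose, so neither family is known for a role in these cells.

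The samples were 3 cultures of untreated, exponentially growing C33A cells grown independently, with total RNA of each culture hybridized to 1 Affymetrix Human Gene ST array. All arrays belonged to 1 group, with no contrast between conditions, so the comparisons below are between genes and are repeated on each array. Values are log2 intensities normalized by the authors with the Robust Multichip Average (RMA) method, and the number of arrays limits their precision. How brightly a probe set reads also varies with the sequence of its probes, which were not used here, so the order of levels between genes is approximate and a high signal is not a measure of transcript abundance. Of 6 genes used to check the line, vimentin (VIM, 9.88), the leukocyte phosphatase PTPRC (8.82), KRT18 (7.75) and KRT8 (5.75), keratins of simple epithelia, were above the background bound defined below. The epithelial adhesion genes CDH1 (4.95) and EPCAM (4.52) were below it.

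The pieces of sequence that follow are the 120 bases before the gene start of 4 genes, shown because they belong to the highest gene of the ultra-high-sulfur class and of all KRTAP genes (KRTAP5-3), the lowest gene with a promoter window (KRTAP3-3), and the highest genes of the high-sulfur (KRTAP1-4) and glycine-tyrosine (KRTAP6-1) classes. They were read from RefSeq promoter windows of GRCh38.p14, on the strand of the gene, and capitals mark the letters TATAAA, the core of the TATA box. All 4 genes lie on the minus strand, and the pieces are at chr11:1608464-1608583 for KRTAP5-3, chr17:40994165-40994284 for KRTAP3-3, chr17:41030196-41030315 for KRTAP1-4 and chr21:30613931-30614050 for KRTAP6-1.
KRTAP5-3: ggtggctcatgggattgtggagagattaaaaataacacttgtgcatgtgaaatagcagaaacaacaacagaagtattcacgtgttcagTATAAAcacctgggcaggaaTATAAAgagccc
KRTAP3-3: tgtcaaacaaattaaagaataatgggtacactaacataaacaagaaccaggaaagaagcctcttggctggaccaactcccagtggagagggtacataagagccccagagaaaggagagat
KRTAP1-4: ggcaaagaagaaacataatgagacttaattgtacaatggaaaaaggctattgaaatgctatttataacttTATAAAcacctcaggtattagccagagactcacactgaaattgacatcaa
KRTAP6-1: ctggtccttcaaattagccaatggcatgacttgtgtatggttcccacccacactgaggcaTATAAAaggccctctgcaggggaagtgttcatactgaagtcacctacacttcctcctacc
KRTAP5-3 holds the letters 2 times in this stretch, KRTAP1-4 begins them 50 bases and KRTAP6-1 60 bases before the gene start, and KRTAP3-3 does not hold them here. The signals of these genes were 8.84 ± 0.16, 3.01 ± 0.05, 8.34 ± 0.13 and 6.46 ± 0.07 for KRTAP5-3, KRTAP3-3, KRTAP1-4 and KRTAP6-1 (log2, mean ± SD, n = 3 arrays).

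KRTAP genes gave a higher signal than OR genes and a lower signal than the genes of the array as a whole. The median KRTAP gene stood at 5.81 on array 1, 5.82 on array 2 and 5.62 on array 3. The median OR gene stood at 3.98, 3.94 and 3.94, and the median of all genes at 6.92, 6.92 and 6.90. The family median was therefore between those of the OR genes and of all genes on each array. The KRTAP median exceeded the OR median by 1.80 ± 0.11 log2 (SD, n = 3 arrays), a ratio of 3.48 in intensity, and was lower than the median of all genes by a difference of -1.16 ± 0.10. Both differences had the same sign on 3 of 3 arrays. The exact two-sided sign-flip test over 3 arrays gave p = 0.25 for each, which is the smallest p that this design allows.

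The families overlapped. By mean level, KRTAP genes ran from 2.86 in KRTAP19-4 to 8.84 in KRTAP5-3, with the middle 50% between 4.53 and 6.47. OR genes ran from 2.08 in OR5K1 to 6.38 in OR1F1, with the middle 50% between 3.34 and 4.56. OR1F1 read 6.29, 6.79 and 6.05 on the 3 arrays, and OR2H2 (6.30) and OR10Q1 (6.19) followed it. Of the KRTAP genes, 24 of 68 had a mean above that of OR1F1, and 11 were above the highest OR gene of the array on every array. OR1F1 itself stood at percentile 43.0 of all genes, so most genes of the array also lay above it, a larger share than among KRTAP genes. A further 11 KRTAP genes lay below the OR median. Ranked among all 18417 genes, 57 of 68 KRTAP genes fell in the lower 5 of 10 deciles of signal and none in the upper 2, against 361 of 361 OR genes in the lower 5.

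**Figure D1:**
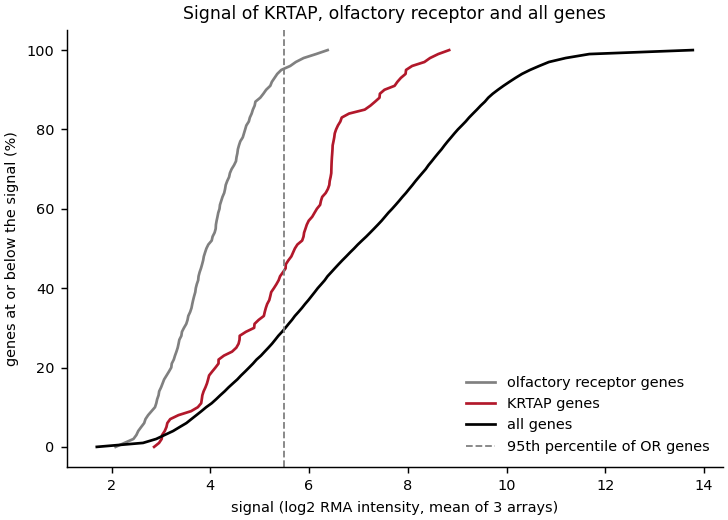
Cumulative share of genes (%) against the signal (log2 RMA intensity, mean of 3 arrays) for the 68 KRTAP genes, the 361 OR genes and all 18417 genes, with the mean 95th percentile of OR genes, 5.48, as a dashed line. The KRTAP curve lies between the others over most of its range, with medians of 5.71 for KRTAP, 3.92 for OR and 6.91 for all genes.

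To count genes against this background, each gene was compared with the 95th percentile of the OR genes on the same array, a bound of 5.55, 5.39 and 5.51 on arrays 1 to 3 (mean 5.48). The test was limma over all genes with Benjamini-Hochberg adjustment, and a gene was called above or below where the adjusted p was under 0.05. Of all genes, 68.0% were called above and 27.0% below. Of the KRTAP genes, 35 of 68 (51.5%) were above, 28 were below and 5 were not called. The share above was lower than that of all genes, and a call above the bound is not a detection call. Of the OR genes, whose own percentile sets the bound, 13 were above, 336 below and 12 not called. The bound itself moved between arrays, and the model gave every gene the same standard error of 0.0855. A gene's own spread between arrays therefore did not enter its p-value, which restates the mean distance from the bound. KRTAP8-1 (SD 0.01) and KRTAP4-3 (SD 0.38) were tested alike. These p-values hold nothing of how probes respond.

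The bound ran through a continuous series of KRTAP levels. KRTAP5-5 (5.58, 5.68 and 5.63 on arrays 1 to 3, adjusted p = 0.0854 by limma), KRTAP9-3 (5.59, 5.66 and 5.34, adjusted p = 0.599) and KRTAP4-3 (5.88, 5.56 and 5.13, adjusted p = 0.643) were the nearest above it by mean. KRTAP4-5 (5.65, 5.36 and 5.25, adjusted p = 0.474), KRTAP8-1 (5.39, 5.38 and 5.37, adjusted p = 0.223) and KRTAP5-AS1 (5.39, 5.26 and 5.26, adjusted p = 0.0377) were the nearest below it. Among these 6, KRTAP5-AS1 alone was called. With the bound at the 99th percentile of OR genes (6.15) the KRTAP count above was 25 (36.8%, against 57.7% of all genes), and at the 90th percentile (5.15) it was 40 (58.8%, against 72.9%).

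Levels differed far more between KRTAP genes than between arrays. The SD between the genes was 1.48 log2, 14.6 times the median SD of a gene over the arrays, 0.10. For OR genes the SD between genes was 0.87 and the median SD over arrays 0.14, and for all genes these were 2.23 and 0.08. Across the 68 genes Pearson's r between arrays was 0.993, 0.988 and 0.991. It was 0.954, 0.958 and 0.954 across OR genes and 0.996, 0.997 and 0.997 across all genes, which spread over a wider range of levels. These correlations are across genes, which are not independent replicates, and each probe set is the same on every array. Even so, in the order of mean levels 60 of 67 pairs of neighbouring genes had overlapping ranges over the 3 arrays, so adjacent ranks are mostly not resolved. The order was made from these same values, which places genes of like level side by side. The count is therefore no test of differences between genes. The gene with the largest spread was KRTAP4-3, with an SD of 0.38.

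Among single-symbol genes, the highest signals came from 3 subfamilies at 3 chromosomes. Multi-symbol probe sets of KRTAP2, not ranked here, reached 8.40. KRTAP5-3 read 8.87, 8.67 and 8.97 on arrays 1 to 3, and KRTAP5-1 read 8.53, 8.37 and 8.63. Both encode ultra-high-sulfur proteins. KRTAP1-4, a high-sulfur gene on chromosome 17, read 8.49, 8.23 and 8.31. These were the only single-symbol KRTAP genes with a mean above 8, and the ranges of KRTAP5-1 and KRTAP1-4 overlapped while that of KRTAP5-3 lay above both. KRTAP10-4 (8.12, 7.91 and 7.88), a high-sulfur gene on chromosome 21, led the next group, with KRTAP5-7 (mean 7.96), KRTAP5-10 (7.82) and KRTAP5-8 (7.74). KRTAP10-12 (7.44), KRTAP10-2 (7.43) and KRTAP10-1 (7.30) completed the 10 highest, so that 5 of the 10 were KRTAP5 genes and 4 were KRTAP10 genes.

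The lowest signals lay well inside the OR range. KRTAP19-4, a glycine-tyrosine gene, read 2.59, 2.88 and 3.12 on arrays 1 to 3. KRTAP3-3, a high-sulfur gene, read 2.96, 3.04 and 3.04. KRTAP20-3 (mean 3.02), KRTAP19-8 (3.10) and KRTAP13-1 (3.13) followed, and each of these 5 genes overlapped its neighbours in the order. All were below the OR median of 3.92.

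Subfamilies were often alike in which side of the bound their members took. Of the 9 subfamilies with at least 3 genes, 2 lay wholly above the bound by the limma call and 4 wholly below. Over all genes, 68.0% were called above and 27.0% below. The KRTAP10 genes, 11 of 11, were above, from KRTAP10-11 (5.69) to KRTAP10-4 (7.97), and so were the 4 KRTAP12 genes, from KRTAP12-1 (5.93) to KRTAP12-4 (7.15). The call rests on the mean, and KRTAP10-11 lay just under the bound on array 3 (5.49 against 5.51). Of the KRTAP5 genes, 10 of 11 were above, from KRTAP5-6 (5.74) to KRTAP5-3. KRTAP5-5 was not called, although it read above the bound on every array. Of the KRTAP4 genes, 3 of 5 were above, up to KRTAP4-2 (6.64), and KRTAP4-3 and KRTAP4-5, the lowest, were not called.

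The subfamilies below the bound were KRTAP3, KRTAP13, KRTAP19 and KRTAP20. The KRTAP3 genes ran from KRTAP3-3 to KRTAP3-1 (5.08), the 4 KRTAP13 genes from KRTAP13-1 to KRTAP13-4 (5.21), the 8 KRTAP19 genes from KRTAP19-4 to KRTAP19-5 (5.11) and the 3 KRTAP20 genes from KRTAP20-3 to KRTAP20-2 (4.90). Within each of these subfamilies the gap from the lowest to the highest gene was far beyond the array SD. KRTAP6 was divided, with KRTAP6-1 (6.53, 6.43 and 6.40) and KRTAP6-3 (6.39, 6.39 and 6.56) above the bound and KRTAP6-2 (5.37, 5.02 and 5.28) below it.

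**Figure D2:**
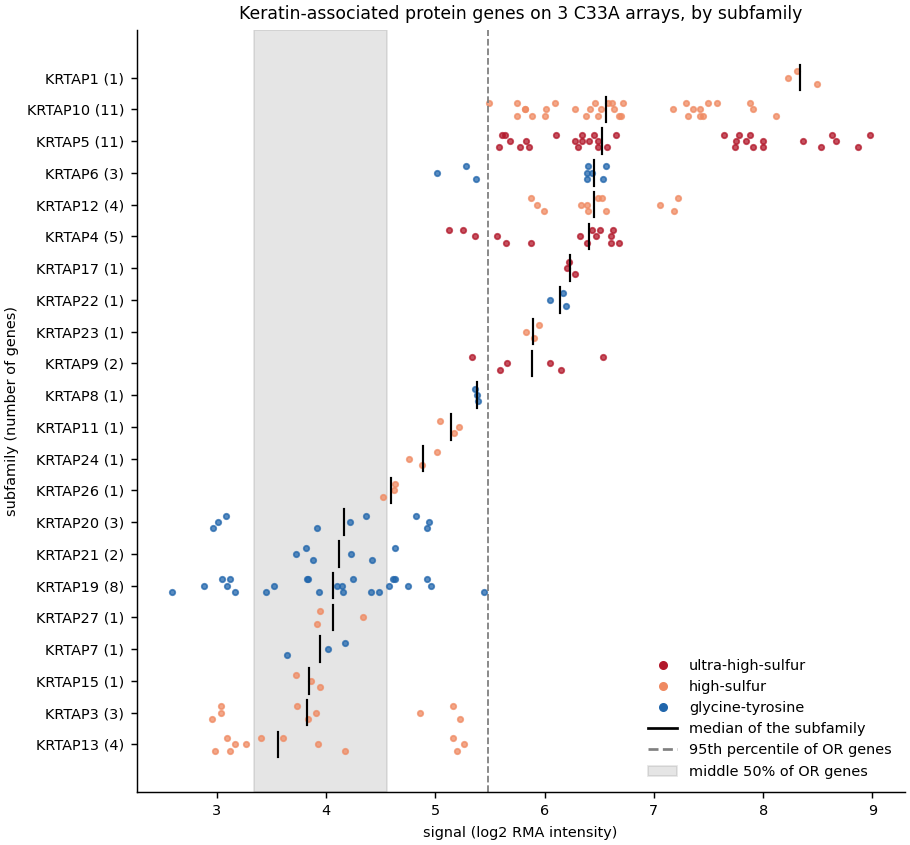
Signal (log2 RMA intensity) of the 67 protein-coding KRTAP genes by subfamily, with 1 point per gene and array, a bar at the subfamily median, the 95th percentile of OR genes (5.48) as a dashed line and the middle 50% of OR genes (3.34 to 4.56) shaded. All KRTAP10 and KRTAP12 gene means lie to the right of the dashed line and all KRTAP3, KRTAP13, KRTAP19, KRTAP20 and KRTAP21 gene means to the left.

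By class median of the single-symbol genes, ultra-high-sulfur genes stood highest and glycine-tyrosine genes lowest. The 19 ultra-high-sulfur genes (KRTAP4, KRTAP5, KRTAP9 and KRTAP17) had a median of 6.39, 6.34 and 6.45 on arrays 1 to 3, and 15 were above the bound with none below. The 29 high-sulfur genes had a median of 5.90, 5.83 and 5.88, with 17 above and 12 below. The 19 glycine-tyrosine genes (KRTAP6, KRTAP7, KRTAP8 and KRTAP19 to KRTAP22) had a median of 4.41, 4.23 and 4.61, with 3 above (KRTAP6-1, KRTAP6-3 and KRTAP22-1, 6.14), 15 below and 1 not called. The shares above were 78.9% of ultra-high-sulfur, 58.6% of high-sulfur and 15.8% of glycine-tyrosine genes, against 68.0% of all genes. Cysteine-rich genes, the first 2 classes together, exceeded glycine-tyrosine genes by 1.83 ± 0.17 log2 (SD, n = 3 arrays), on 3 of 3 arrays. Ultra-high-sulfur genes exceeded high-sulfur genes by 0.52 ± 0.04. Multi-symbol probe sets were left out of these classes, and that difference was not recomputed with them. Their medians by subfamily were 6.52 for KRTAP1, 8.05 for KRTAP2, 7.31 for KRTAP10, 7.31 for KRTAP4 and 5.89 for KRTAP9. Against the OR median, the 3 classes stood higher by 2.44 ± 0.06, 1.92 ± 0.02 and 0.47 ± 0.19, in the same order. Each of these differences had p = 0.25 by the exact sign-flip permutation test, the smallest possible, and 13 differences of this kind were computed.

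The class difference moved together with genome position. The 68 genes lay in 5 clusters, with 2 on chromosome 11, 1 on chromosome 17 and 2 on chromosome 21, and all 19 glycine-tyrosine genes lay in the first cluster on chromosome 21. That cluster held 29 genes with a median of 4.43, of which 4 were above the bound and 24 below. The second cluster on chromosome 21 held the 15 KRTAP10 and KRTAP12 genes, with a median of 6.48. There 15 of 15 were above, against 68.0% of all genes. The second exceeded the first by 2.07 ± 0.09 log2 (n = 3 arrays, exact permutation p = 0.25). High-sulfur genes alone differed by as much, with the 15 of the second cluster 2.15 ± 0.19 above the 10 of the first. Within the first cluster, glycine-tyrosine and high-sulfur genes differed by 0.07, -0.25 and 0.32 on the 3 arrays (mean 0.05 ± 0.29, exact permutation p = 0.75), so no class difference was seen there beyond the array spread. On chromosome 17, the other cluster with more than 1 class of protein, the 8 ultra-high-sulfur genes had a median of 6.24, with 5 above and none below, and the 4 high-sulfur genes a median of 4.45, with 1 above and 3 below. The ultra-high-sulfur genes were higher there by 1.68, 1.75 and 1.88 on the 3 arrays (mean 1.77 ± 0.10, exact permutation p = 0.25). Those 4 high-sulfur genes were KRTAP1-4 (8.34) and the 3 KRTAP3 genes (3.01 to 5.08). Multi-symbol probe sets were left out, so the difference holds for single-symbol genes only. Those of KRTAP1 ran from 6.37 to 6.97 and those of KRTAP2, with no single-symbol gene, from 7.24 to 8.40. Those of KRTAP4 ran from 5.37 to 7.46 and those of KRTAP9 from 5.16 to 5.90. No cluster but the first on chromosome 21 held glycine-tyrosine genes.

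The remaining clusters varied within themselves. On chromosome 11 the first cluster, 6 KRTAP5 genes and KRTAP5-AS1, had a median of 6.35 and the second, 5 KRTAP5 genes, a median of 7.74, a difference of 1.36 ± 0.07 (n = 3 arrays, exact permutation p = 0.25). The first nevertheless held the highest genes of all, KRTAP5-3 and KRTAP5-1. On chromosome 17, the 12 genes had a median of 5.88, with 6 above and 3 below, and held both KRTAP3-3 and KRTAP1-4, more than 5 log2 apart.

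**Figure D3:**
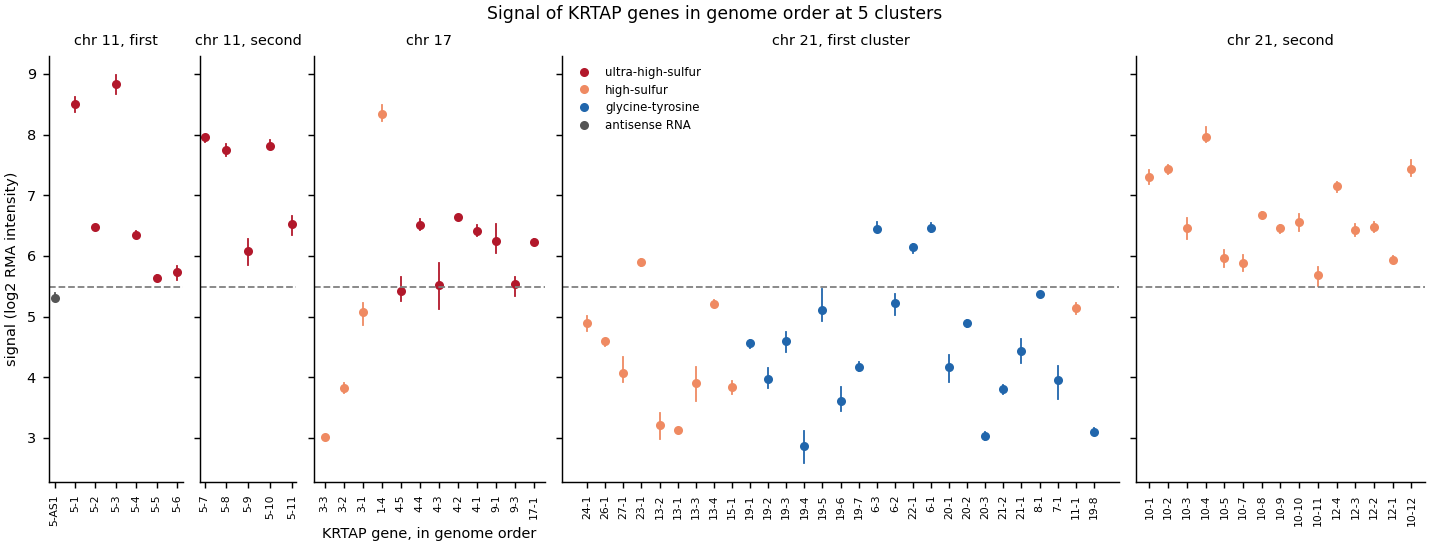
Signal (log2 RMA intensity) of the 68 KRTAP genes in genome order within 5 clusters, as the mean (point) and range (line) of 3 arrays, coloured by class, with the mean 95th percentile of OR genes (5.48) dashed. All 15 genes of the second cluster on chromosome 21 lie above the line, and 24 of 29 genes of the first cluster were called below the bound.

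Some KRTAP genes lie inside or across other genes in the RefSeq annotation. The interval of TSPEAR, which encodes a secreted or membrane protein with a role in hearing and in tooth and hair development, overlaps all 15 genes of the second cluster on chromosome 21. TSPEAR itself read 6.73, 6.34 and 6.45, close to the median of those genes, 6.48. KRTAP5-AS1 overlaps KRTAP5-1, KRTAP5-2 (6.47) and DUSP8, a phosphatase gene with a signal of 6.88. In the first cluster on chromosome 21, the long non-coding RNA gene LOC105372772, not measured by a single-symbol probe set, overlaps KRTAP13-4 (5.21), KRTAP13-3 (3.90), KRTAP15-1 (3.84) and KRTAP13-1 (3.13), all called below the bound. Which strand and exons the probes cover was not examined, and the part of overlapping transcripts in these signals was not tested.

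Genes with several probe sets showed how far a gene's signal depends on the probe set. KRTAP21-1 had a pair of single-symbol probe sets that read 5.65 and 3.21 on average, a difference of 2.43 log2, with the gene mean of 4.43 below the bound. The probe sets of KRTAP5-7 read 8.06 and 7.86. KRTAP3-1, KRTAP3-2 and KRTAP3-3 each had a pair of probe sets with identical values on every array, so each pair was taken as 1 measurement. In all, 18 of the 99 KRTAP probe sets formed 9 such pairs, among 418 groups of probe sets with identical values on the whole array.

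The 26 probe sets with several symbols, which cannot be assigned to a gene, gave 20 distinct sets of values, and 21 KRTAP symbols appeared on these alone. They read higher than the single-symbol genes, with a median of 7.11 and a range from 5.12 to 8.40, and 17 of 20 were above the bound on every array. The corresponding share was 70.5% of the 1557 distinct multi-symbol probe sets of the array, whose median was 7.09, and 22 of 58 for those with OR symbols. When OR probe sets with several symbols also entered the bound, it rose to 5.98, and 15 of 20 were above it on every array, against 63.8% of all multi-symbol probe sets. Single-symbol and multi-symbol KRTAP units together then gave 49 of 94 (52.1%) above by limma, against 60.5% of all units. The 4 of the KRTAP2 subfamily, which has no gene with its own probe set, ran from 7.24 to 8.40. The 8 of KRTAP4, with up to 9 symbols each, ran from 5.37 to 7.46, the 3 of KRTAP1 from 6.37 to 6.97 and the 3 of KRTAP9 from 5.16 to 5.90. A probe set with 10 symbols of the KRTAP10 subfamily read 7.31, and one shared by KRTAP20-4 and SPATA31C2 read 5.12. Array 1 was the highest in 15 of 20, including 8 of 8 for KRTAP4, 4 of 4 for KRTAP2 and 3 of 3 for KRTAP1, whereas array 1 was the highest for 39.2% of all genes and for 35.3% of the single-symbol KRTAP genes. These probe sets share symbols and are not independent, and no test was made.

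**Figure D4:**
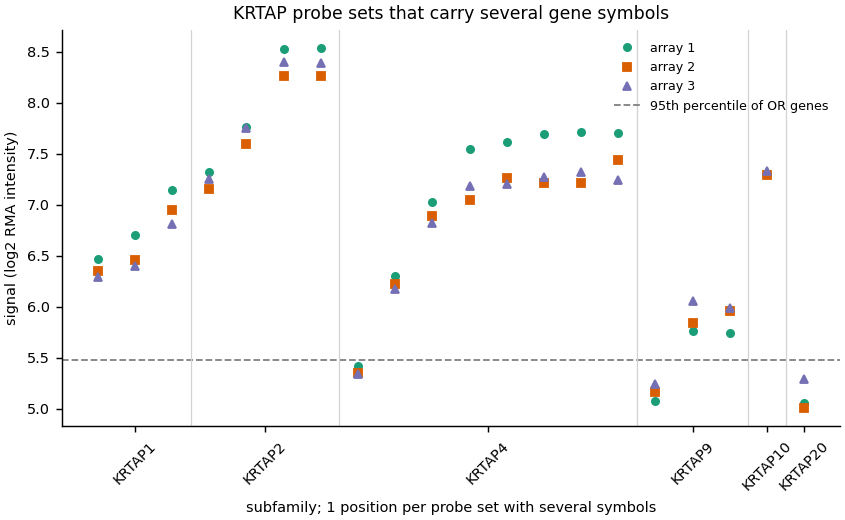
Signal (log2 RMA intensity) on each of the 3 arrays of the 20 distinct probe sets that carry several symbols with at least 1 KRTAP symbol, ordered by subfamily, with the mean 95th percentile of OR genes (5.48) dashed. In the KRTAP1, KRTAP2 and KRTAP4 groups the symbol for array 1 is the highest at every position.

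Signal went with the base composition at the gene start. RefSeq windows of 300 bases, from 250 before to 50 after the gene start, were matched by symbol for 55 of 68 KRTAP genes (80.9%), 275 of 338 protein-coding OR genes and 13771 of 16903 protein-coding genes. The genes without a window include 9 of the 11 KRTAP5 genes, so that class is thinly covered. Across the 55 KRTAP genes, Spearman's rho between mean signal and GC content was 0.71 (Pearson's r = 0.57), and 0.73 (r = 0.68) without KRTAP5-AS1, whose window had the highest GC content, 78.7%. Across OR genes rho was 0.30 and across protein-coding genes 0.38. Within the high-sulfur class (n = 28) rho was 0.82, within the glycine-tyrosine class (n = 16) 0.52, within the first chromosome 21 cluster (n = 26) 0.46 and within the second (n = 14) 0.81. These are descriptions across genes of the same arrays, many of them copies of each other, and the GC content of the probes themselves was not examined.

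The KRTAP median was the higher in each bin of window GC content. In windows under 35% GC the median was 4.59 for 3 KRTAP genes and 3.70 for 82 OR genes. In windows of 35 to 40% GC the median was 4.06 for 17 KRTAP genes and 3.77 for 86 OR genes, in windows of 40 to 45% it was 5.22 for 15 and 4.15 for 60, and in windows of 45 to 50% it was 6.24 for 9 and 4.49 for 30. At 50% or more it was 6.56 for 11 KRTAP genes and 4.53 for 17 OR genes. The gap was narrowest in the bin of 35 to 40% and did not widen at every step from the lowest bin, which held few KRTAP genes. The bins describe promoter windows and not probes, and most KRTAP5 genes had no window. Base composition as a cause of the gap was not tested. Windows of the second chromosome 21 cluster had a median GC content of 54.8% and those of the first 39.0%.

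**Figure D5:**
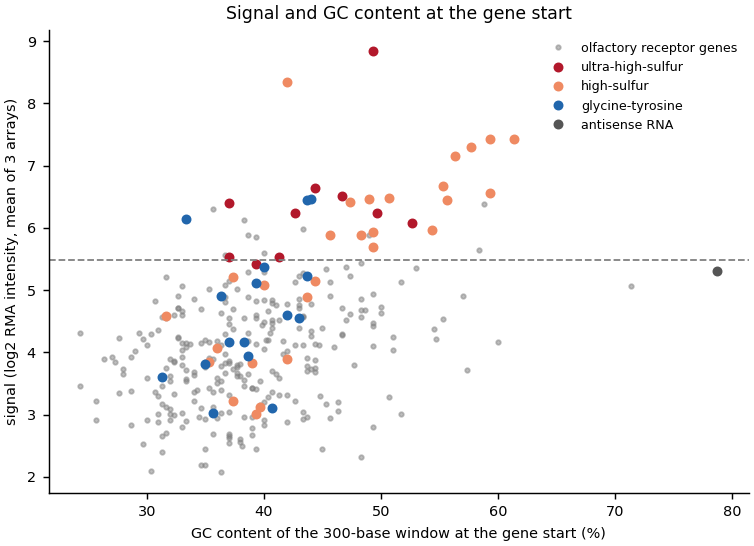
Signal (log2 RMA intensity, mean of 3 arrays) against the GC content (%) of the 300-base window at the gene start for 55 KRTAP genes, coloured by class, and 275 OR genes in grey, with the mean 95th percentile of OR genes (5.48) dashed. Above 50% GC, all KRTAP genes but the antisense RNA lie above the dashed line, while most OR genes lie below it.

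KRTAP windows were also rich in the letters TATAAA (reverse complement TTTATA on the other strand). On the strand of the gene, 39 of 55 KRTAP genes with a window (70.9%) held them, against 50 of 275 OR genes (18.2%) and 7.33% of all 35116 windows of the table. KRTAP and OR counts are by gene, and some OR genes had several windows. The share of all windows counts single windows, so the units are not alike. On either strand the shares were 72.7%, 32.4% and 11.5%. A start of the letters between 40 and 20 bases before the gene start, where a TATA box usually lies, was found in 24 KRTAP genes (43.6%), 3 OR genes (1.09%) and 2.30% of all windows. KRTAP windows had a median GC content of 42.7%, OR windows 38.0% and all windows 58.7%, and the shares at matched GC content were not tested. The 24 KRTAP genes with the letters in that place had a median signal of 6.04 (3.13 to 8.84) and the 31 without 5.30 (3.01 to 8.34), which overlapped almost fully. A match is a string in a window and no evidence that a factor binds there.

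The other genes of the hair shaft and the cornified envelope gave a like picture of a low and uneven signal. Of 14 hair keratin genes measured, which encode the filaments that KAPs join, 6 were above the bound, 6 below and 2 not called, from KRT36 (3.92) to KRT33A (6.37). Of 6 regulators of the hair follicle, HOXC13, a homeobox factor that controls hair keratin genes, was the highest, with 7.99, 8.19 and 8.03, and GATA3 was also above (6.23). DLX3 (5.45, adjusted p = 0.713 by limma) and LEF1 (5.38, adjusted p = 0.230 by limma) were not called, and FOXN1 (4.85) and MSX2 (4.16) were below. Of 19 genes of the inner root sheath and hair cuticle, 3 were above and 14 below, from LPAR6 (3.32) to CDSN (6.74).

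Cornified envelope genes, small and clustered like the KRTAP genes, spread as widely. Of 17 late cornified envelope genes, 10 were above and 5 below, from LCE2C (3.73) to LCE1D (7.98). Of 15 small proline-rich and other envelope genes, 5 were above and 9 below, from SPRR2D (3.20) to SPRR2F (7.44). Over the 5 lists, 26 of 71 genes measured were above the bound, a share below the 68.0% of all genes, as for the KRTAP genes. That count rested on the bound, and was 12 at the 99th percentile of OR genes and 14 with the bound that includes multi-symbol probe sets.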

How the data were processed

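Total RNA from 3 independent C33A cultures was hybridized to 1 Affymetrix Human Gene ST array each. The authors extracted the raw data with the GeneChip Command Console, normalized them by RMA, processed them further with oneChannelGUI and deposited log2 intensities per probe set, of which RMA alone is named in the submitters' processing notes. Tool versions were left out, as not given in the sources used here. RMA gives the arrays 1 common distribution, so total differences between cultures are removed. No detection calls or probe signals were used.

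Symbols came from the platform annotation (19460 with 1 symbol, 1754 with several, 12083 with no gene listed), and probe sets that name the same single gene were averaged. All 68 KRTAP symbols were found in the RefSeq gene table, which gave biotypes, neighbours and clusters only. Levels minus the 95th percentile of OR genes of each array were tested with limma 3.58.1 in R 4.3.3, two-sided, over 18417 genes with Benjamini-Hochberg adjustment. Differences of medians were tested with an exact two-sided sign-flip permutation over arrays. A planned grouping and correlation by protein composition was replaced, since no protein sequences were used here: classes came from textbook assignments of subfamily numbers, and promoter GC content stood in for composition, with sets under 80% coverage left out. Members, lists and tests were chosen with earlier results of these data known. Named genes were the 10 highest and 5 lowest KRTAP genes, the extremes of each subfamily of 3 or more, the 3 on either side of the bound, multi-symbol probe sets, the extremes of each list, all regulators, and the 3 highest and the lowest OR gene; KRTAP22-1, KRTAP5-2, KRTAP5-6, KRTAP15-1, KRTAP13-3, TSPEAR, DUSP8, LOC105372772 and genes with several probe sets were named after their values were seen. The test was run on simulated data with noise independent between genes and a fixed bound. That check does not cover a bound that moves between arrays. Figures used matplotlib 3.10.9 and tables pandas 2.3.3, NumPy 2.4.6 and SciPy 1.17.1 under Python 3.11.15.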

Additional observations from a re-analysis of the deposited data

How the results depend on the processing

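The count of KRTAP genes above the bound, 35, was 33 to 36 when each array was left out in turn, and the counts under every alternative tried lay within 1.5 times of it. It was 36 with protein-coding OR genes alone and, in alternatives chosen after seeing the data, 36 with 1 bound for all arrays and 35 with a variance trend. It was 38 with no test. With multi-symbol probe sets the bound rose to 5.98, and 49 of 94 KRTAP units (52.1%) stood above it, against 60.5% of all units. The difference of KRTAP and OR medians, 1.80, was 1.76 to 1.86 without each array, 2.16 with multi-symbol probe sets and 1.63 as a difference of means over genes. The class difference, 1.83, was 1.74 to 1.91 without each array. The correlation of level and GC content, 0.71, was 0.701 to 0.711 without each array, 0.512 with multi-symbol probe sets and, chosen after seeing the data, 0.735 without KRTAP5-AS1. Multi-symbol probe sets were named by their first listed KRTAP symbol, although they cannot be assigned to a gene. The value of 0.512 is therefore no clean check of the relation to GC content. The median SD over arrays, 0.10, was 0.081 to 0.098. The count over the hair and cornification lists, 26, was 22 to 24 without an array, 14 with multi-symbol probe sets, under the higher bound, and 12 at the 99th percentile. Of 15 named levels recomputed, 1 moved by over 1 SD under any setting, KRTAP5-7 taken by its highest probe set (8.06). No paired analysis was possible because all arrays belong to 1 group. With 3 arrays, differences of medians cannot reach p under 0.25, and nothing here separates low transcription from probe behaviour.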
